A study of Mus musculus with 12 samples.

Results

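The endoplasmic reticulum (ER) chaperones and unfolded protein response genes described here were 9 genes, Hspa5, Hsp90b1, Xbp1, Dnajb9, Sdf2l1, Pdia4, Pdia6, Calr and Manf. They were found by their symbol among the 13780 genes of the count table, each in 1 row, and all 9 were among the 13767 genes tested. RNA-seq was performed on 12 libraries of splenic CD8+ T cells from wild type C57BL/6J mice of 8 to 12 weeks, purified by positive magnetic selection. In the naïve group, 4 libraries came from cells of 4 donors frozen directly after purification, with neither activation nor treatment. In the media group, 4 libraries came from cells kept for 72 h in plain media (vehicle) with IL-2 at 10 U/ml and Dynabeads carrying antibodies to CD3 and CD28. In the lactate group, 4 libraries came from cells activated in the same way with 40 mM sodium lactate (NaLac) added. The activated cells came from 5 donors, and 3 of these gave a library to each activated group. The control for lactate was plain media without an equimolar salt, so the lactate anion and the added sodium cannot be told apart. The genes of the CD8+ T cell, Cd8a among them, were present in every group, with a summed level of 2675 to 5127 CPM in naïve, 3967 to 4757 in media and 3138 to 3784 in lactate libraries. CPM are read counts scaled to the size of the library.

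Proteins destined for the membrane or for secretion fold in the ER, where the Hsp70 chaperone BiP (Hspa5), the Hsp90 chaperone GRP94 (Hsp90b1), calreticulin and protein disulfide isomerases assist them. When unfolded proteins accumulate, the sensors IRE1, ATF6 and PERK start the unfolded protein response, which raises the transcription of these same chaperones. IRE1 acts by splicing the mRNA of Xbp1, and gene counts such as these do not separate the spliced from the unspliced form. In lymphocytes the response is best known from plasma cells, and activated CD8+ T cells also use it as they come to make cytokines and granule proteins.

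Promoters of ER chaperones carry a known binding site of ATF6 and XBP1, the ER stress element (ERSE), read here as CCAAT and CCACG with 9 bases between them on either strand. RefSeq promoter windows on GRCm38.p6, from 250 bases before to 50 after the start site, were found for 8 of the 9 genes. The element was in 4 of these 8 windows and in 39 of all 32851 windows of the same length (0.119%). Since it is known from promoters of ER chaperones, these counts are not a test of enrichment. The 4 promoters are printed because they hold the element, written 5′ to 3′ along the strand of the gene, with the letters that match in capitals. A match on the opposite strand reads CGTGG and then ATTGG.
Hspa5, chr2:34772020-34772048, plus strand: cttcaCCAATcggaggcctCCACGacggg
Calr, chr8:84847070-84847098, minus strand: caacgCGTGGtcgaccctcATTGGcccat
Hsp90b1, chr10:86705528-86705661, minus strand: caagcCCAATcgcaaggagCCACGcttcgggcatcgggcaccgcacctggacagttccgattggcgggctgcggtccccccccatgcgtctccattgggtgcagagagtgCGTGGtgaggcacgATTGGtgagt
Pdia6, chr12:17266486-17266514, plus strand: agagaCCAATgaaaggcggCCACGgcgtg

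Counted from the RefSeq start site, the element began at base -65 in Hspa5, at -162 in Calr and at -98 in Pdia6. Hsp90b1 held it at -212 on its own strand and at -107 on the opposite strand. All 29 bases printed for Hspa5 fall in an exon of a longer transcript that GENCODE M21 annotates, while those of the other 3 genes fall in 0 annotated exon bases of their gene. The windows of Xbp1, Dnajb9, Sdf2l1 and Pdia4 held no match, and the related ERSE-II (ATTGG, 1 base, CCACG) was in 0 of the 8 windows and in 12 of all 32851 (0.0365%). A match describes the letters of a window and is not a measurement of binding.

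**Figure D1:**
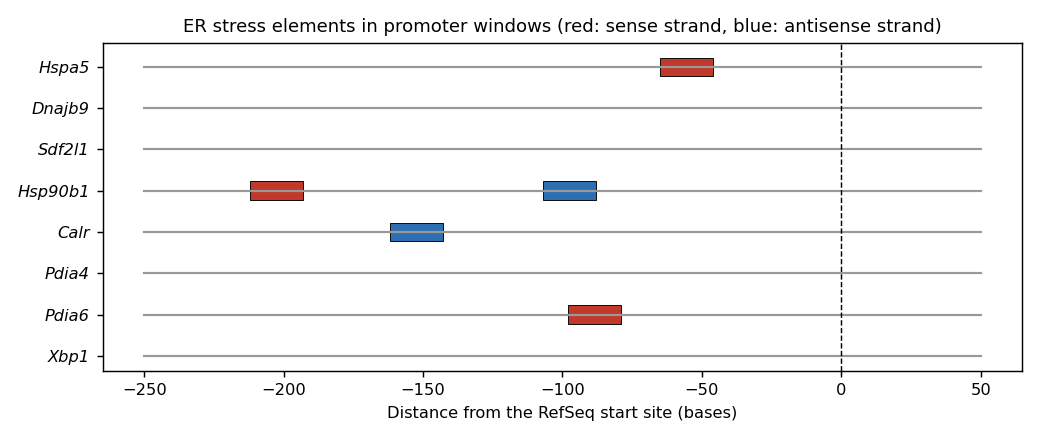
Position of the ER stress element in the promoter windows of 8 genes, with the distance from the RefSeq start site in bases on the x axis. Boxes mark matches on the gene's own strand (red) or the opposite strand (blue). Matches lie in 4 of the 8 windows, and Hsp90b1 has 2 of them.

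The libraries held 14726904 to 21478137 counted reads. Among the naïve libraries, replicate 4 stood apart in the cytosolic heat shock gene Dnajb1. Dnajb1, a co-chaperone of Hsp70 chosen after its values were seen, had 923, 1416 and 1427 CPM in naïve replicates 1, 2 and 3, against 88.5 in naïve replicate 4. The naïve libraries also held more RNA of other cell types, with a summed level of the 12 B and plasma cell markers of 2905 to 7417 CPM in naïve, 439 to 708 in media and 264 to 349 in lactate libraries. For the 10 myeloid markers the sums were 857 to 1992, 71.3 to 92.7 and 92.4 to 107 CPM, and S100a8 and S100a9 were at 0 in every activated library. For the 4 red cell globin and heme genes in the table they were 84.1 to 3369 CPM in naïve libraries and at most 1.90 in activated ones. For the 4 CD4+ T cell markers they were 44.3 to 76.5, 48.0 to 60.7 and 83.7 to 96.6 CPM, mostly from Zbtb7b in the activated cells. The numbers before the library names in the labels left a gap between 8 low-numbered libraries and 4 high-numbered ones. No label calls these a batch or a run, and the split was inferred from the numbers alone. The high numbers belonged to naïve replicate 4, media replicate 4 and lactate replicates 3 and 4. In bulk samples, a change in the number of cells of a type and a change of RNA per cell cannot be told apart.

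Compared in TPM, which scale the counts by gene length as well as by library, calreticulin, BiP and GRP94 were the 3 highest genes of the 9 in every group. In naïve cells Calr, a calcium-binding lectin chaperone, had 608 ± 90.6 TPM (SD, n = 4), Hspa5 had 543 ± 92.5 and Hsp90b1 had 336 ± 31.5. The ranges of Calr and Hspa5 overlapped, and both lay above the range of Hsp90b1. In media Hsp90b1 came first with 565 ± 68.8 TPM, followed by Calr with 452 ± 39.6 and Hspa5 with 312 ± 70.3. The range of Hspa5 lay below that of Calr, and Calr and Hsp90b1 overlapped. In lactate the order was Calr with 668 ± 68.0, Hsp90b1 with 568 ± 76.6 and Hspa5 with 521 ± 57.8 TPM, and the ranges of neighbours overlapped.

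The other 6 genes changed places between groups. Sdf2l1 was the lowest in naïve cells with 61.7 ± 20.3 TPM, overlapping Manf with 65.1 ± 1.17. It moved to the seventh place in media with 99.6 ± 26.8 and the fourth in lactate with 271 ± 20.1 TPM, where its range overlapped those of Xbp1 (260 ± 30.1) and Pdia6 (229 ± 22.4). Dnajb9 was the fifth in naïve cells with 149 ± 46.3 TPM and last in both activated groups, with 19.2 ± 15.5 in media and 17.8 ± 12.2 in lactate. The 9 genes together held 2125 ± 91.8 TPM in naïve, 1960 ± 181 in media and 2876 ± 172 in lactate libraries.

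Sodium lactate against media during activation was the comparison that asked for the effect of lactate. Of the 9 genes, 6 were higher with lactate and 0 were lower at an adjusted p of at most 0.01 (edgeR quasi-likelihood test). Over all genes tested, 13.9% were higher and 11.1% lower, 25.1% in all. The 4 lactate and 4 media libraries did not overlap for 7 of the 9 genes, all higher with lactate, where 44.7% of all genes did not overlap and 23.2% were higher without overlap. The median log2 fold change of the 9 genes was 0.87, and that of all genes was -0.0016. With the donor as a block in the fit of all 12 libraries, 2 genes stayed past the threshold, Calr and Manf (992 of all genes, against 3451 without the block). With the same block in a fit of the 8 activated libraries alone, a setting added after the data were seen, 7 genes were higher, with Pdia4 beside the 6 (3654 of all genes).

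**Figure D2:**
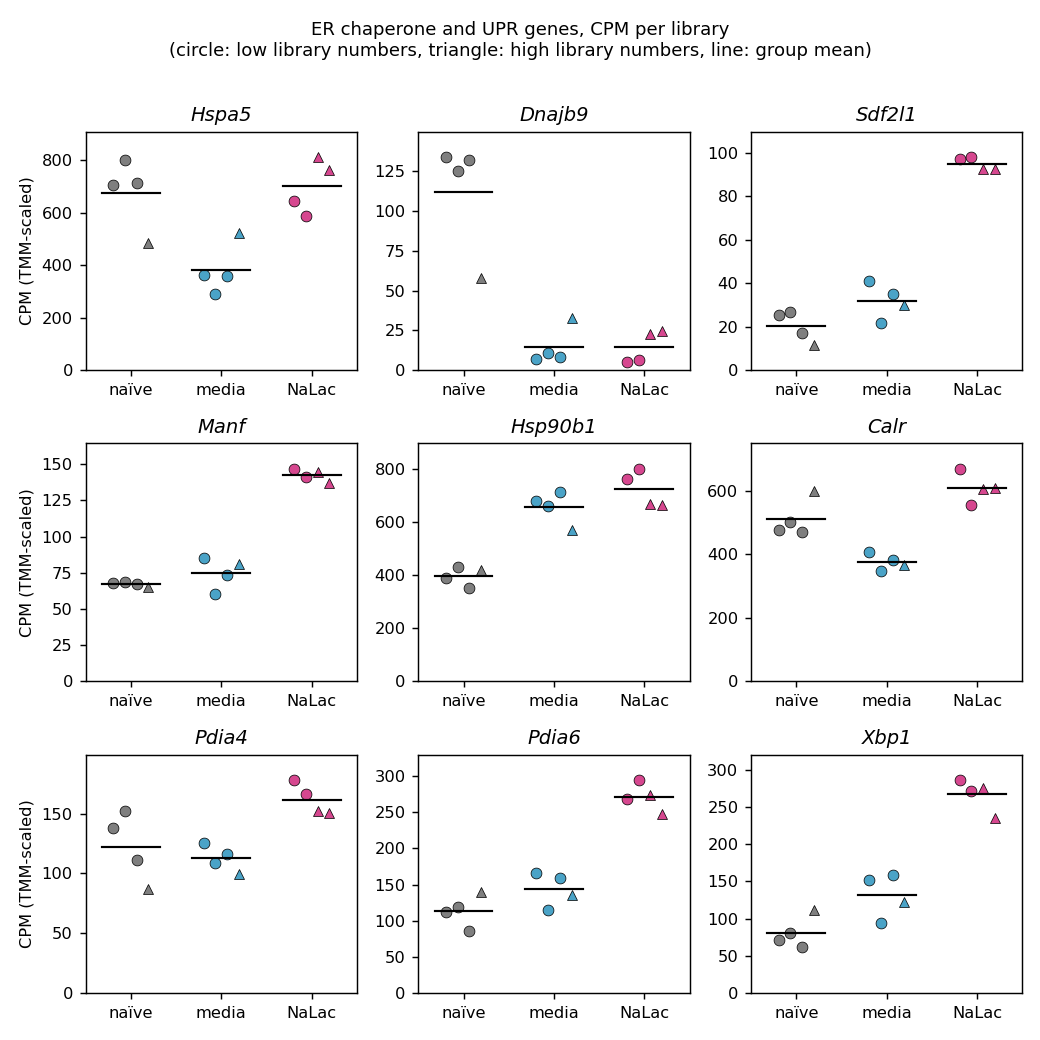
Level of each of the 9 genes in each library in TMM-scaled CPM (y axis, linear, from 0), for naïve, media and lactate (NaLac) cells. Points are libraries with low numbers (circles) and high numbers (triangles), and lines are group means. In 7 panels every lactate point lies above every media point, and in Dnajb9 the high-numbered libraries stand apart in all 3 groups.

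Of the 9 genes, Sdf2l1 had the largest fold change. SDF2L1 is a partner of ER Hsp40 proteins in the BiP cycle, and its gene lies at chr16:17130138-17132383 on the minus strand (GRCm38, GENCODE M21, as for the genes that follow). Its level was 97.3, 97.8, 92.4 and 92.7 CPM in lactate replicates 1 to 4 and 40.8, 21.7, 34.8 and 29.8 CPM in media replicates 1 to 4. Every lactate library lay far above every media library, and the lactate libraries varied little among themselves. The log2 fold change was 1.58 (SE 0.24, edgeR adjusted p = 0.000382), or 2.99-fold. With the donor block in all 12 libraries it was 1.46 (edgeR adjusted p = 0.0133).

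Hspa5 encodes BiP, the Hsp70 of the ER and the chaperone whose release from the sensors is thought to start the response (chr2:34771970-34777547, plus strand). It measured 644, 586, 811 and 764 CPM in the 4 lactate libraries and 362, 288, 358 and 523 CPM in the 4 media libraries. The groups did not overlap, and in both groups the high-numbered libraries (lactate replicates 3 and 4, media replicate 4) were the highest. Hspa5 thus had a log2 fold change of 0.87 (SE 0.19, edgeR adjusted p = 0.0037), or 1.83-fold. Within the high-numbered libraries alone the difference of mean log2 CPM was 0.59, with 2 lactate libraries against 1 of media. The call was lost with the donor block in all 12 libraries (log2 fold change 0.69, edgeR adjusted p = 0.0313) and on leaving out media replicate 1, 2 or 3 or lactate replicate 3 or 4 (edgeR adjusted p of 0.0121 to 0.0147).

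Calr encodes calreticulin, which holds newly made glycoproteins until they fold (chr8:84841850-84846934, minus strand). It measured 668, 555, 605 and 608 CPM in lactate and 407, 347, 383 and 365 CPM in media libraries. The lowest lactate library lay well above the highest media library. The log2 fold change was 0.70 (SE 0.10, edgeR adjusted p = 0.000272), or 1.62-fold.

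Manf encodes a secreted factor that also binds BiP in the ER (chr9:106838312-106891979, minus strand). It measured 147, 141, 145 and 137 CPM in lactate and 85.3, 60.1, 73.5 and 80.8 CPM in media libraries. The 2 groups were far apart, and Manf had the smallest adjusted p of the 9 genes. Its log2 fold change was 0.93 (SE 0.10, edgeR adjusted p = 6.91e-05), or 1.90-fold. Of its exon bases, 9.25% overlap other genes, most of them on the opposite strand, and whether reads were counted by strand is not given in the sources used here.

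Pdia6 and Pdia4 encode protein disulfide isomerases, which form and rearrange the disulfide bonds of folding proteins. Pdia6 (chr12:17266545-17284770, plus strand) measured 268, 294, 274 and 247 CPM in lactate and 166, 114, 159 and 136 CPM in media libraries. The groups did not overlap, and the log2 fold change was 0.91 (SE 0.15, edgeR adjusted p = 0.00057), or 1.88-fold. With the donor block in all 12 libraries it was 0.81 (edgeR adjusted p = 0.0146).

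Pdia4 (chr6:47796141-47813430, minus strand) measured 178, 167, 152 and 151 CPM in lactate and 126, 109, 116 and 99.8 CPM in media libraries. The groups did not overlap here either. The log2 fold change was 0.52 (SE 0.15, 95% interval 0.19 to 0.85), and the adjusted p of edgeR was 0.0162, short of the threshold of 0.01. Of 25 other settings, Pdia4 passed under 6 and did not pass under 19. Among the 6 were DESeq2 (adjusted p = 0.00898) and a fit of the 2 groups alone (edgeR adjusted p = 0.00148). Others were a term for low or high library numbers (0.0021) and the fit without naïve replicate 4 (0.00185), both edgeR adjusted p.

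Hsp90b1 encodes GRP94, the Hsp90 of the ER, which folds integrins and Toll-like receptors (chr10:86690209-86705509, minus strand). It measured 762, 799, 669 and 663 CPM in lactate and 680, 660, 713 and 570 CPM in media libraries. The groups overlapped. For Hsp90b1 the log2 fold change was 0.14 (SE 0.10, 95% interval -0.083 to 0.36, edgeR adjusted p = 0.304). Of its exon bases, 15.7% overlap other genes, most of them on the opposite strand.

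Xbp1 is the transcription factor of the IRE1 arm, and Dnajb9 and Sdf2l1 are among its known targets. Xbp1 (chr11:5520659-5525893, plus strand) measured 286, 272, 276 and 235 CPM in lactate and 152, 94.1, 159 and 122 CPM in media libraries. All lactate libraries lay above all media libraries. Xbp1 had a log2 fold change of 1.02 (SE 0.19, edgeR adjusted p = 0.0013), or 2.03-fold. With the donor block in all 12 libraries it was 0.88 (edgeR adjusted p = 0.0220).

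Dnajb9 encodes ERdj4, an ER Hsp40 that keeps BiP bound to IRE1 and so restrains it (chr12:44205559-44210326, minus strand). It measured 4.87, 6.45, 22.8 and 24.8 CPM in lactate and 6.66, 10.4, 8.03 and 32.7 CPM in media libraries, from 95 to 521 counted reads. The values differed more by library number than by group, with 4.87 to 10.4 CPM in the 5 activated libraries with low numbers and 22.8 to 32.7 CPM in the 3 with high numbers. The log2 fold change was 0.03 (SE 0.59, 95% interval -1.25 to 1.32, edgeR adjusted p = 0.987). Within the low-numbered libraries the difference of mean log2 CPM, lactate minus media, was -0.54, and within the high-numbered ones it was -0.46. With a term for this split the fitted value was -0.32 (edgeR adjusted p = 0.644). The value of 0.03 without the term was small beside its SE. Its sign also changed under other scalings, which do not involve the split.

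**Figure D3:**
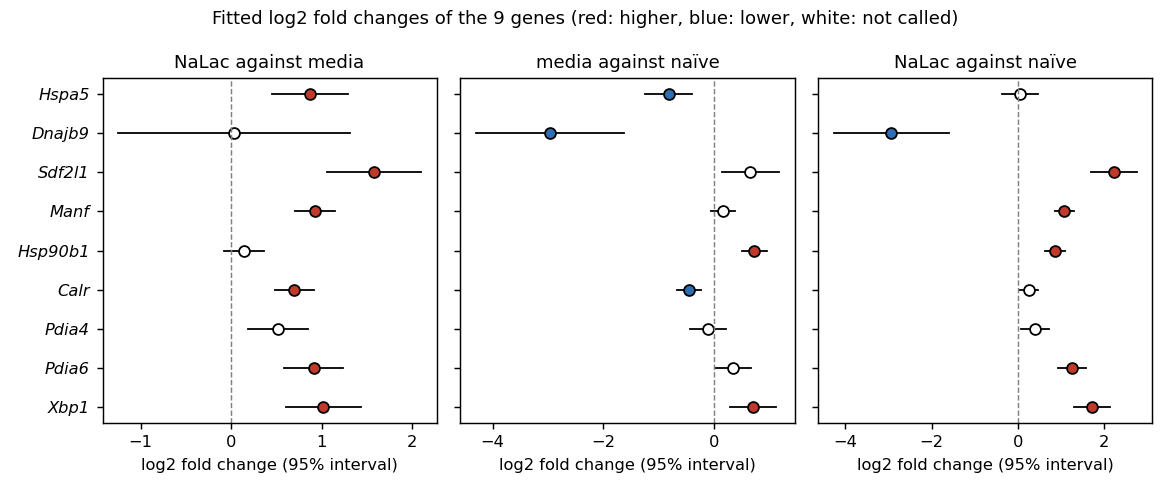
Fitted log2 fold changes of the 9 genes in the 3 comparisons, with 95% intervals as bars. Red points were higher and blue points lower at an adjusted p of at most 0.01 (edgeR), and white points were not called. With lactate against media, 6 points are red, and the widest interval is that of Dnajb9.

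Each of the 7 genes without overlap had an exact permutation p of 0.0286 over the 70 arrangements of 4 against 4 libraries, two-sided, the smallest that this design can give. The lack of overlap fixes this value, so it is no separate result. The arrangements also ignore the donor pairs and the split by library number. Within donors, the lactate library was above the media library in 3 of 3 pairs for 8 of the genes. The same count was not made over all genes, so how unusual it is was not tested. The log2 differences ran from 1.25 to 1.63 for Sdf2l1, from 0.78 to 0.95 for Xbp1 and from 0.76 to 0.94 for Manf. They were 0.69 to 0.88 for Pdia6, 0.54 to 0.83 for Hspa5, 0.54 to 0.74 for Calr, 0.50 to 0.59 for Pdia4 and 0.16 to 0.22 for Hsp90b1. For Hsp90b1 the 3 donors gave nearly the same difference, although the libraries of the groups overlapped. Dnajb9 was lower with lactate in 3 of 3 donors, by log2 differences of -0.44 to -0.31. The fit of the 8 activated libraries with the donor as a block gave Dnajb9 a log2 fold change of -0.38 with an edgeR adjusted p of 0.0375.

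**Figure D4:**
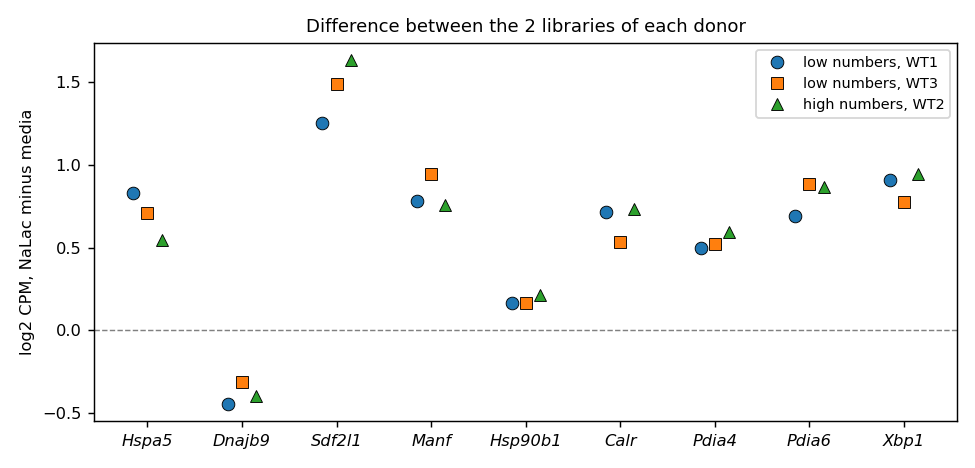
Difference in log2 CPM between the lactate and the media library of each of the 3 donors that gave both (y axis), for the 9 genes. Each symbol is a donor. For 8 genes all 3 symbols lie above 0, and for Dnajb9 all 3 lie below it.

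The ratios between the genes were compared as well. Of the 36 ratios between a pair of the 9 genes, 15 had no overlap between lactate and media libraries. Each of these had an exact permutation p of 0.0286, two-sided, and an adjusted p of 0.0686 over the 36, so none passed 0.05. The lack of overlap fixes the unadjusted p, so it is no separate result. The 36 ratios reuse the same 9 genes and are not independent. Ratios between other genes were not counted, so how unusual 15 of 36 is was not tested. Sdf2l1 took part in 7 of these 15 ratios, Hsp90b1 in 6 and Pdia4 in 5. The ratio of Sdf2l1 to Hsp90b1 was higher with lactate by 1.48 on the log2 scale, and the ratio of Sdf2l1 to Hspa5 by 0.72. Hspa5 took part in only 1 of the ratios without overlap, that to Sdf2l1. Its ratios to Hsp90b1, Xbp1, Dnajb9, Pdia4, Pdia6, Calr and Manf all overlapped.

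Across the 8 activated libraries, which share the 2 conditions and the split by library number, the log2 CPM of 6 genes (Xbp1, Sdf2l1, Pdia4, Pdia6, Calr, Manf) had a median Pearson correlation with the other 8 genes of 0.92 to 0.96. The median was 0.83 for Hspa5, 0.54 for Hsp90b1 and -0.11 for Dnajb9. As deviations from the group mean, Xbp1 and Pdia6 had a correlation of 0.95, Sdf2l1 and Pdia6 one of 0.93, and Hsp90b1 and Dnajb9 one of -0.94 (n = 8 libraries). The 5 genes most like the mean standardized profile of the 9 genes over these libraries were Lta, Psma1, Rangap1, Samm50 and Uchl3, with Pearson r of 0.998 to 0.999. Such likeness was common, since 1300 of 13585 genes compared had an r of at least 0.95. Lta, the cytokine lymphotoxin alpha, had a mean of 26.6 CPM in media and 436 in lactate, and Psma1, a proteasome subunit, 169 and 231 CPM.

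Activation in media against naïve cells asked what activation alone does. Hsp90b1 and Xbp1 were higher in media, and Calr, Hspa5 and Dnajb9 were lower, 2 and 3 of the 9 genes, where 28.5% of all genes were higher and 29% lower (57.5% in all, edgeR adjusted p of at most 0.01). The groups did not overlap for 3 of the 9 genes, 1 of them higher and 2 lower in media, where 61.2% of all genes did not overlap (30.7% higher and 30.5% lower). The median log2 fold change was 0.16 for the 9 genes and -0.03 for all genes. The first was 0.055 without media replicate 4, 0.25 without media replicate 2, and 0.081 to 0.096 without media replicate 1, naïve replicate 2 or 3 or lactate replicate 3 or 4.

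Hsp90b1 measured 390, 429, 350 and 418 CPM in the naïve libraries, all below the media libraries. Its log2 fold change was 0.73 (SE 0.10, edgeR adjusted p = 4.65e-05). Xbp1 measured 71.1, 80.3, 62.3 and 111 CPM in naïve libraries, and naïve replicate 4 overlapped the media libraries. Its log2 fold change was 0.70 (SE 0.19, edgeR adjusted p = 0.00565), a call that was lost under 10 of the other settings (adjusted p of 0.0113 to 0.0381), leaving out naïve replicate 1, 2 or 3, media replicate 1, 3 or 4 or lactate replicate 3 or 4 among them.

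Calr measured 476, 502, 469 and 600 CPM in naïve libraries, all above media, with a log2 fold change of -0.45 (SE 0.10, edgeR adjusted p = 0.00154). Hspa5 measured 706, 800, 715 and 483 CPM in naïve libraries, and naïve replicate 4 fell below media replicate 4. Its log2 fold change was -0.82 (SE 0.19, edgeR adjusted p = 0.00224), and it was -0.96 without naïve replicate 4. Dnajb9 had the largest difference, with 134, 125, 132 and 57.8 CPM in naïve libraries and a log2 fold change of -2.97 (SE 0.62, edgeR adjusted p = 0.000905), or 7.83-fold lower in media. Here too the high-numbered libraries stood apart, with naïve replicate 4 below the other naïve libraries and media replicate 4 above the other media libraries. Without media replicate 4 the log2 fold change of Dnajb9 was -3.82 (edgeR adjusted p = 0.000143). Over 22 other settings it ran from -3.82 to -2.72. Means of low-numbered libraries were 130 CPM in naïve and 8.35 in media. The high-numbered libraries, 1 in each group, had 57.8 and 32.7 CPM. Without naïve replicate 4 the same 5 genes were called, and for these results the part of the RNA of other cell types and of heat shock genes such as Dnajb1 in the naïve libraries was not tested.

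The other 4 genes did not pass the test. Sdf2l1 measured 25.2, 26.8, 17.2 and 11.5 CPM in naïve libraries (log2 fold change 0.66, edgeR adjusted p = 0.0279). Pdia6 measured 112, 118, 86.2 and 140 CPM (0.34, 0.0605), Manf 68.0, 68.7, 67.3 and 65.1 CPM (0.16, 0.186) and Pdia4 138, 152, 112 and 86.7 CPM (-0.11, 0.522). The naïve libraries of Manf varied least of the 9 genes, with a coefficient of variation of 2.30%.

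Activation with lactate against naïve cells shares its samples with both comparisons above, and its values are given beside theirs. Sdf2l1 was higher by 2.24 on the log2 scale, Xbp1 by 1.72, Pdia6 by 1.25, Manf by 1.08 and Hsp90b1 by 0.87, and Dnajb9 had a log2 fold change of -2.94, or -3.74 with a term for low or high library numbers. These were 5 genes higher and 1 lower at an edgeR adjusted p of at most 0.01, where 33% of all genes were higher and 32% lower (65% in all). For these 6 genes the groups did not overlap, where 67.8% of all genes did not overlap, 35% higher and 32.8% lower. Pdia4 (0.41, edgeR adjusted p = 0.0273), Calr (0.25, 0.0363) and Hspa5 (0.05, 0.817) did not pass. In the fit of all libraries, Hspa5 was thus lower in media than in naïve cells and higher in lactate than in media. Its lactate and naïve libraries overlapped, with a 95% interval of -0.37 to 0.47 for the difference. The order of the groups differed by library number. Low-numbered libraries had means of 740 CPM in naïve, 336 in media and 615 in lactate. Among high-numbered ones, naïve replicate 4 had 483 CPM, media replicate 4 had 523 and the lactate mean was 787. Without naïve replicate 4 Calr passed as well (log2 fold change 0.33, edgeR adjusted p = 0.00378). That library, the only high-numbered naïve one, had 600 CPM of Calr, against 605 and 608 in lactate replicates 3 and 4. Of 22 other settings, Calr and Pdia4 each passed under 2 and did not pass under 20.

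The other genes of the pathway were counted from lists, with the same test, and each count of lactate against media is to be read against 13.9% of all genes higher and 11.1% lower. Fewer of them were called with the donor as a block in all 12 libraries, namely 4 in ER folding, 1 in ER-associated degradation, 1 in the translocon list, 0 in the PERK arm and 5 of the chaperones of the cytosol and mitochondria. Over all 13767 genes, that block called 992. Of the 4 stress sensors of the ER membrane, 1 was higher with lactate than media and 0 were lower (median log2 fold change -0.16). Atf6b, a relative of ATF6, measured 94.9, 87.3, 93.6 and 92.1 CPM in lactate and 60.2, 42.1, 52.8 and 51.6 CPM in media libraries, with a log2 fold change of 0.83 (SE 0.10, edgeR adjusted p = 0.000123). Its level in naïve cells was 80.0 ± 4.33 CPM (SD, n = 4).

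Atf6 had a log2 fold change of -0.10 (edgeR adjusted p = 0.68) and Ern1, the gene of IRE1, one of -0.22 (edgeR adjusted p = 0.586). Eif2ak3, the gene of PERK, measured 45.9, 50.5, 50.8 and 55.0 CPM in lactate and 70.9, 87.9, 88.1 and 82.6 CPM in media libraries. Its groups did not overlap, but the log2 fold change of -0.70 did not pass the test (SE 0.33, edgeR adjusted p = 0.114), with 188 CPM in naïve replicate 4 against 53.5 to 62.6 in the other naïve libraries. Of its exon bases, 8.05% overlap other genes.

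Of 27 other folding enzymes and chaperones of the ER, 7 were higher with lactate, 2 were lower and 18 did not pass (median log2 fold change 0.19). Fkbp11, a prolyl isomerase, was higher by 1.85 (SE 0.34) from a mean of 1.36 CPM in media to 4.95 in lactate. Creld2, a known ER stress gene, was higher by 0.96 (SE 0.14), and Hyou1, the nucleotide exchange factor of BiP, by 0.89 (SE 0.15). The 2 lower genes were Ero1l, the oxidase that recharges disulfide isomerases, with a log2 fold change of -0.76 (SE 0.16), and Dnajc3, the co-chaperone P58IPK, with -0.73 (SE 0.18). Ero1l measured 371, 591, 472 and 456 CPM in lactate and 786, 855, 895 and 657 CPM in media libraries, and 29.7 to 43.8 CPM in naïve ones. The edgeR adjusted p of these 5 genes were 0.00124, 0.000268, 0.000864, 0.00271 and 0.00578, in the order named.

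Genes of ER-associated degradation, which removes proteins that fail to fold, numbered 22, of which 3 were higher (13.6%, against 13.9% of all genes) and 4 were lower (18.2%, against 11.1%), with a median log2 fold change of -0.09. Edem2, which trims the mannose of misfolded glycoproteins, was higher by 0.77 (SE 0.11) and the ubiquitin-conjugating enzymes Ube2j2 by 0.53 (SE 0.11) and Ube2g2 by 0.43 (SE 0.10). Edem3, a relative of Edem2, had a log2 fold change of -1.06 (SE 0.19), the lectin gene Erlec1 one of -0.63 (SE 0.09), and Derl3 one of -2.32 (SE 0.49) from a mean of 1.81 CPM in media. All 6 had an edgeR adjusted p of at most 0.00623, and 10.3% of the exon bases of Ube2g2 overlap other genes.

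Of 22 genes of the translocon and of N-glycosylation, through which proteins enter the ER, 7 were higher and 0 lower (median log2 fold change 0.22). Rpn1, a subunit of the oligosaccharyltransferase, rose from 165 ± 26.1 to 322 ± 25.1 CPM (SD, n = 4), by 0.96 on the log2 scale (SE 0.12, edgeR adjusted p = 0.000118). Krtcap2, of the same complex, was higher by 0.59 (SE 0.09) and Ssr4, of the translocon-associated complex, by 0.50 (SE 0.10), and 15.7% of the exon bases of Krtcap2 overlap other genes.

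Of 8 genes of the PERK arm, 1 was higher with lactate (12.5%, against 13.9% of all genes) and 0 were lower. It was Eif2s1, which encodes the eIF2α that PERK phosphorylates (log2 fold change 0.89, SE 0.13, edgeR adjusted p = 0.000342). Atf4, the transcription factor of this arm, had a log2 fold change of 0.30 (edgeR adjusted p = 0.0842). Ddit3, the gene of CHOP, measured 20.9, 41.3, 32.9 and 34.1 CPM in lactate and 43.9, 48.0, 64.9 and 55.9 CPM in media libraries, and its log2 fold change of -0.72 did not pass (edgeR adjusted p = 0.0158). Atf4 and Ddit3 were chosen after their values were seen.

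Of 18 chaperones of the cytosol and mitochondria, 9 were higher and 0 lower with lactate (median log2 fold change 0.68). Hspd1, the mitochondrial Hsp60, rose by 1.14 (SE 0.22), Ahsa1, the activator of cytosolic Hsp90, by 0.92 (SE 0.13), and Hspa9, the mitochondrial Hsp70, by 0.92 (SE 0.16). Their edgeR adjusted p were 0.00165, 0.000273 and 0.000699. Higher levels with lactate were therefore also found for chaperones outside the ER, and whether the ER genes differed from them was not tested.

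**Figure D5:**
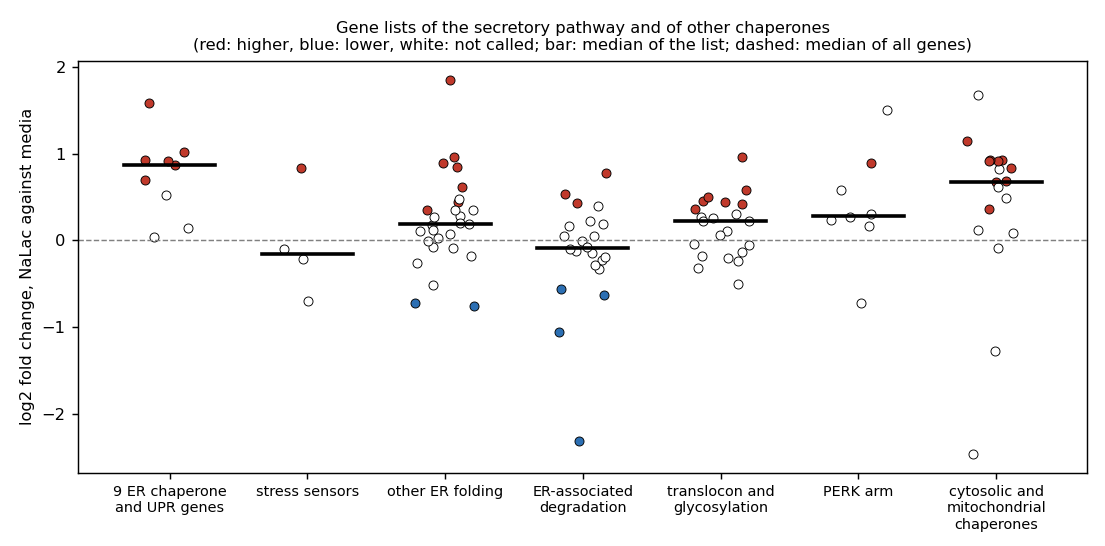
Log2 fold change of lactate against media (y axis) for the genes of 7 lists. Each point is a gene, red if higher, blue if lower and white if not called (edgeR, adjusted p of at most 0.01), bars are list medians and the dashed line is the median of all genes. The median is 0.87 for the 9 genes and 0.68 for the chaperones of the cytosol and mitochondria.

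In media against naïve cells, where 28.5% of all genes were higher and 29% lower, the translocon and glycosylation list had 14 of 22 genes higher and 0 lower (median log2 fold change 0.57), and the ER folding list had 11 of 27 higher and 5 lower (0.20). Of the 22 genes of ER-associated degradation, 3 were higher and 4 lower, of the PERK arm 4 and 1 of 8, of the sensors 0 and 2 of 4, and of the chaperones of the cytosol and mitochondria 6 and 6 of 18 (33.3% each). Ero1l, a target of HIF-1, had a log2 fold change of 4.45 in this comparison (SE 0.18, edgeR adjusted p = 2.99e-09).

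The genes with an ER stress element in their promoter were listed by sequence alone. Of 9966 tested genes with a window, 26 held ERSE or ERSE-II, and with lactate against media 7 of these were higher and 4 lower (26.9% and 15.4%, against 15.4% and 11.8% of the 9966). Their median log2 fold change was -0.09, and that of the 9966 was 0. Without the 4 genes described above, 4 of 22 were higher and 4 lower. The 4 promoters printed above thus belonged to 3 genes that rose with lactate, Hspa5, Calr and Pdia6, and to Hsp90b1, which did not pass the test.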

How the data were processed

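RNA-seq was measured in 12 libraries, 4 per group. By their methods and processing notes, the authors used bcl2fastq 2.20.0.422, aligned reads to GRCm38 with STAR 2.7.5b, discarded PCR duplicates and assigned the unique alignments to Ensembl exons with featureCounts; the strand setting is not given in the sources used here. The deposited values are raw counts per gene. The 9 genes and all gene lists were chosen with earlier results of these data known.

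Genes that reached 1 CPM in 3 libraries were kept (13767 of 13780), scaled by TMM and fitted in 1 quasi-likelihood model of 3 groups with edgeR 4.0.16 (R 4.3.3), with Benjamini-Hochberg adjustment over all genes and a threshold of 0.01. The fit was tested on simulated data. CPM are TMM-scaled, and TPM used the deposited gene lengths. Alternatives used DESeq2 1.42.0 and limma 3.58.1. Named from each list were the sensors and, among called genes, up to 3 in each direction, with the 5 genes most like the mean profile; others were chosen after their values were seen. Exon overlaps came from GENCODE M21 and promoters from RefSeq (GRCm38.p6).

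Groups, donor tags and library numbers came from the labels. Donor tags restart between low and high library numbers and were read within each range, which gives the 5 donors of the record. Libraries of the same donor are paired by animal through these tags alone: over all genes, their deviations from the group means had correlations of 0.374, 0.211 and 0.553, against 0.371 for media replicate 4 and lactate replicate 3 and 0.297 for media and lactate replicate 2, of different donors.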

Additional observations from a re-analysis of the deposited data

Results flagged for a closer look

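Among the 27 groups of 4 libraries (9 genes, 3 groups), 2 held a library far from the other 3 by Dixon's test at the 95% level, where chance gives about 1 group in 20. Both were of Dnajb9 and both in libraries with high numbers. Naïve replicate 4 had 57.8 CPM, below 125 to 134 CPM in the other naïve libraries, and media replicate 4 had 32.7 CPM, above 6.66 to 10.4 CPM in the other media libraries.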

How the results depend on the processing

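The 9 genes and the lists were recomputed under other scalings, tools, filters, samples, blocks and thresholds and without each library. Without 1 library at a time, 5 to 7 of the 9 genes were called with lactate against media, 4 to 5 with media against naïve and 6 to 7 with lactate against naïve, and the median log2 fold changes ran from 0.76 to 0.91, from 0.055 to 0.25 and from 0.73 to 0.89. Over all genes, the same fits called 2252 to 4845, 7074 to 8357 and 8113 to 9335 genes in these comparisons, of 13430 to 13730 tested.

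With the donor as a block in all 12 libraries, 2 genes were called with lactate against media and the median log2 fold change was 0.69. In the 8 activated libraries alone, chosen after seeing the data, the donor block gave 7 genes and a median of 0.70. In the lists, the block in all 12 libraries gave 4 calls in ER folding, 1 in ER-associated degradation, 1 in the translocon list, 0 in the PERK arm and 5 in the chaperones of the cytosol and mitochondria. In the 8 libraries it gave 3 of 8 in the PERK arm and 2 of 4 sensors, where 3654 of 12460 genes were called. DESeq2 gave 3 of 8 in the PERK arm, where 4551 of 13767 genes were called. The cause of the difference between the 2 blocked fits was not tested. The block by title number changed no call of the 9 genes; over all genes it gave 3025 calls, against 3451 without a block and 992 with the donor block, and the correlations of libraries with the same number were 0.374, 0.297, 0.0038 and 0.553.

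Dnajb9 reversed with lactate against media under DESeq2 (-0.010) and its size factors (-0.0055), total counts (-0.020), upper quartile scaling (-0.00039), a term for low or high library numbers (-0.32), the title block (-0.019) and the donor block in 12 (-0.39) or 8 libraries (-0.38), within the low-numbered (-0.54) and high-numbered libraries (-0.46), and in a range of -0.37 to 0.81 without 1 library. Hspa5 with lactate against naïve reversed under DESeq2's size factors (-0.042), upper quartile scaling (-0.0070), DESeq2 (-0.042), the 2 groups alone (-0.0048) and the term for library numbers (-0.021), and ran from -0.089 to 0.13 without 1 library. The list of genes by ER retention tail was not run. In the activated libraries Dnajb9 had 95 to 521 counted reads. Its coefficient of variation was 84.9% in media and 71.4% in lactate libraries, and the cause of this spread was not tested.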
